A study of Mus musculus with 4 samples.

Results

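Apoe and Apoc1 are 2 of the 32479 genes counted in single cells of the mouse dorsal epidermis. They were chosen by name, after Apoe had been seen to be higher in bulge cells of CerS4epi-/- mice, so the genotype contrast in bulge and upper follicle cells chose them and is given here as a description with no test. What was tested is their genotype difference in the other cell types, and their level in each cell type against basal keratinocytes. Counts came from 4 female C57BL/6N mice at postnatal day 19, measured by BD Rhapsody. This microwell method tags every captured transcript, so that copies made by amplification are counted once. The study marked cells with sample tags and separated the reads by tag. The counts deposited for each mouse are called a library here. The 2 control mice carried floxed CerS4, the gene of a ceramide synthase, without Cre (CerS4fl/flK14Cre-). The 2 CerS4epi-/- mice were CerS4fl/flK14Cre+, in which keratin-14 Cre deletes CerS4 in epidermal keratinocytes, follicle and sebaceous gland included.

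Apolipoprotein E is a secreted protein that carries cholesterol and phospholipid on lipoprotein particles and hands them to cells through receptors on their surface. It takes up lipid that cells export through the transporters Abca1 and Abcg1, and its gene is a target of the liver X receptors, which sense oxidized cholesterol. Apolipoprotein C1 is a small protein of the same particles that inhibits lipoprotein lipase and hinders the binding of Apoe particles to their receptors. Keratinocytes are a known source of Apoe outside the liver.

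The genes are neighbours. On chromosome 7 of GRCm39, Apoe (ENSMUSG00000002985) runs from 19430034 to 19434947 and Apoc1 (ENSMUSG00000040564) from 19422540 to 19427328, both on the minus strand, with 2705 bases between them, 4 exons in the main transcript of Apoe and 3 in that of Apoc1. Tomm40 lies on one side of the pair and Apoc4 and Apoc2 on the other. A long noncoding RNA annotated on the plus strand, Gm71725, overlaps Apoe from 19431043 to 19435224 and was not among the genes counted. All counts of Apoe and of Apoc1 were whole (100% within 1e-06), so neither gene took counts from reads shared with a similar gene.

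A cell was a barcode with 1200 counts or more and no more than 20% of them mitochondrial, which left 7567 to 9086 cells per mouse. The libraries held 39231945 to 53106317 counts, and doublets were not removed. Each cell was put into the first of 13 gates it met, set on marker genes that exclude Apoe and Apoc1, and 10 gates are shown. The gates of T cells, Langerhans cells and sebaceous cells held counts of 8, 8 and at least 11 genes of their lists of 8, 8 and 12. The outer bulge gate rests on Lhx2 and held counts of all 8 outer bulge genes. The same lists set these gates, and a count in any cell was enough, so this is no test of what the cells are. However, Cd34, a defining gene of this compartment, was at only 7.21 to 21.0 CPM (counts of a gene per 1000000 counts of the gate). Krt79, a gene of the upper hair follicle, was at 1358 to 1929 CPM, so the gate holds cells with features of both. It also held cells with counts of Krt1 and Krt10, keratins of differentiated cells. In control mice only 58 of 117 and 28 of 76 of its cells had under 20 such counts. In CerS4epi-/- mice 208 of 251 and 190 of 204 did. Outer bulge cells below means the cells of this gate, not a pure cell type. CerS4 itself (Cers4) was at 2685 and 2182 CPM in the sebaceous gland gate of control mice, the gate where it was highest, and at 242 and 381 CPM in that of CerS4epi-/- mice.

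Mice of the same genotype shared no barcode, neither among cells (77.1 and 87.1 would be shared by independent draws) nor among all barcodes with a count, while mice of different genotype shared 64 to 102 cell barcodes (72.5 to 92.6). The paper does not state which mice were captured together. Genotype and whatever the mice of 1 genotype shared in capture cannot be told apart. The p-values measure only the spread between these 4 libraries, which may not be 4 separate captures.

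Apoe was most abundant in the outer bulge gate, in each of the 4 mice. It was at 9424 and 6324 CPM in the control mice and at 37178 and 30806 CPM in the CerS4epi-/- mice, so every CerS4epi-/- value was at least 3.27 times every control value. On the scale of edgeR the difference was 2.16 (SE 0.23, log2, n = 2 mice a group). These sums rest on 117 and 76 control cells and 251 and 204 CerS4epi-/- cells, with 4042, 2012, 55077 and 34184 counts of Apoe.

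Most outer bulge cells held Apoe in both genotypes, and both the share of cells and the amount per cell were higher in CerS4epi-/- mice. Apoe was counted in 92.3% and 90.8% of control cells and in 99.2% and 99.5% of CerS4epi-/- cells (exact 95% intervals reach down to 81.9% in control and 97.2% in CerS4epi-/- mice, for counting error only). In T cells, where Apoe lay below its level in free RNA, the shares were 25% and 26.0% in control and 36.5% and 40.3% in CerS4epi-/- mice, at median depths of 1574 to 1936 counts. The median cell held 4478 and 3036 CPM of Apoe in control mice, against 31377 and 24804 CPM in CerS4epi-/- mice. A level over 10000 CPM was reached by 29.9% and 21.1% of control cells and by 76.5% and 77.5% of CerS4epi-/- cells. After each cell was thinned to 1200 counts, Apoe was counted in 80.3% and 78.9% of control cells and in 96.0% and 97.1% of CerS4epi-/- cells. A thinned cell held on average 12.2 and 9.88 counts of Apoe in control and 45.9 and 40.3 in CerS4epi-/- mice. Apoe was less evenly spread over control cells, where the top 10% of cells held 54.4% and 54.4% of its counts, against 30.1% and 28.7% in CerS4epi-/- cells.

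The outer bulge cells of the genotypes also differed in other genes. Krt10, a keratin of differentiated interfollicular cells, was at 9913 and 14386 CPM in control and at 3588 and 2521 CPM in CerS4epi-/- mice. Krt14, a keratin of basal cells, was at 1338 and 1094 against 6046 and 8018 CPM. The control Krt14 values lay below those of free RNA (1983 and 1754 CPM), the CerS4epi-/- values above theirs (2617 and 2577 CPM). The gate thus held unlike mixes of cells in the genotypes. The median mitochondrial share was 8.32% and 8.28% in control and 10.1% and 11.8% in CerS4epi-/- cells, and the median depth 3194 and 3220 against 4793 and 4389 counts. Among cells with under 20 counts of Krt1 and Krt10 together, Apoe was at 7676 and 6745 CPM in 58 and 28 control cells and at 40042 and 34136 CPM in 208 and 190 CerS4epi-/- cells, a log2 difference of 2.53. Macrophage genes, which mark another known source of Apoe, were at 1.35 to 3.38 CPM in this gate for the list of 7 together. A macrophage gate was applied before this one, and no cell of any mouse met it. The part of macrophage RNA in the Apoe level was not tested.

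**Figure D1:**
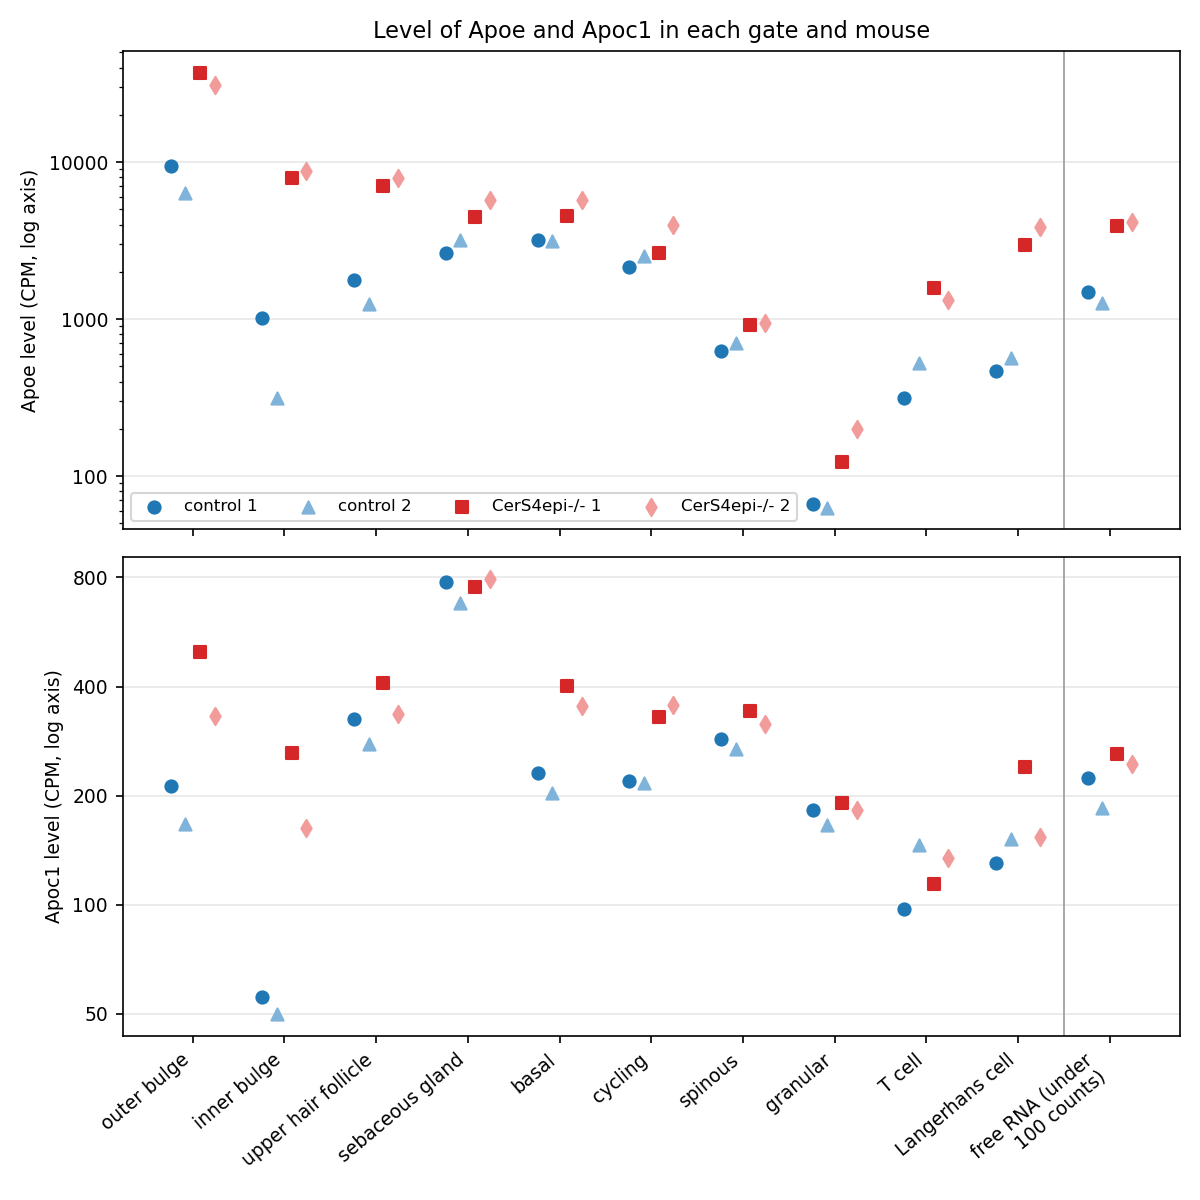
Level of Apoe (upper panel) and Apoc1 (lower panel) in CPM (log axes) for each gate and, at the right, for free RNA in barcodes under 100 counts, with 1 point per mouse. Apoe spans 63.0 CPM in granular cells of a control mouse to 37178 CPM in outer bulge cells of a CerS4epi-/- mouse, while Apoc1 stays between 49.97 and 794 CPM.

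In the inner bulge gate, set on Krt75, Apoe was at 1013 and 312 CPM in control and at 7873 and 8797 CPM in CerS4epi-/- mice. The control mice stood apart from each other here, with 237 and 50 counts of Apoe in 47 and 39 cells, and free RNA could account for up to 20.5% and 88.3% of these control values. Most of these counts came from few cells. In CerS4epi-/- mice 26 and 35 cells were in the gate, the median cell held 211 and 261 CPM, and the top 10% of cells held 83.8% and 75.7% of all Apoe counts. The upper hair follicle gate, set on Krt79, had many more cells, 883 and 679 in control and 1701 and 1531 in CerS4epi-/- mice. Apoe was at 1784 and 1239 CPM there in control and at 7031 and 7960 CPM in CerS4epi-/- mice, a difference of 2.36 (SE 0.17, log2). The outer bulge, inner bulge and upper hair follicle gates hold the contrast that chose Apoe, so their values are a description only. Without the first control mouse the difference in the inner bulge gate was 4.74 and that in the upper hair follicle gate 2.66.

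Within the upper hair follicle gate, Apoe was higher in cells with counts of the basal keratins. Cells with at least 5 counts of Krt5 and Krt14 held 4142 and 2433 CPM of Apoe in control and 10683 and 12934 CPM in CerS4epi-/- mice. Cells with fewer held 944 and 819 CPM in control and 3858 and 3716 CPM in CerS4epi-/- mice. Apoe was thus higher in CerS4epi-/- mice in both kinds of cell. The keratin-rich cells made up 22.1% and 20.5% of the gate in control and 40.7% and 40.6% in CerS4epi-/- mice. This cut was on raw counts, and the median depth was 2723 and 2424 counts in control against 3428 and 3098 in CerS4epi-/- mice. The part of depth and of free RNA in these shares was not tested.

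**Figure D2:**
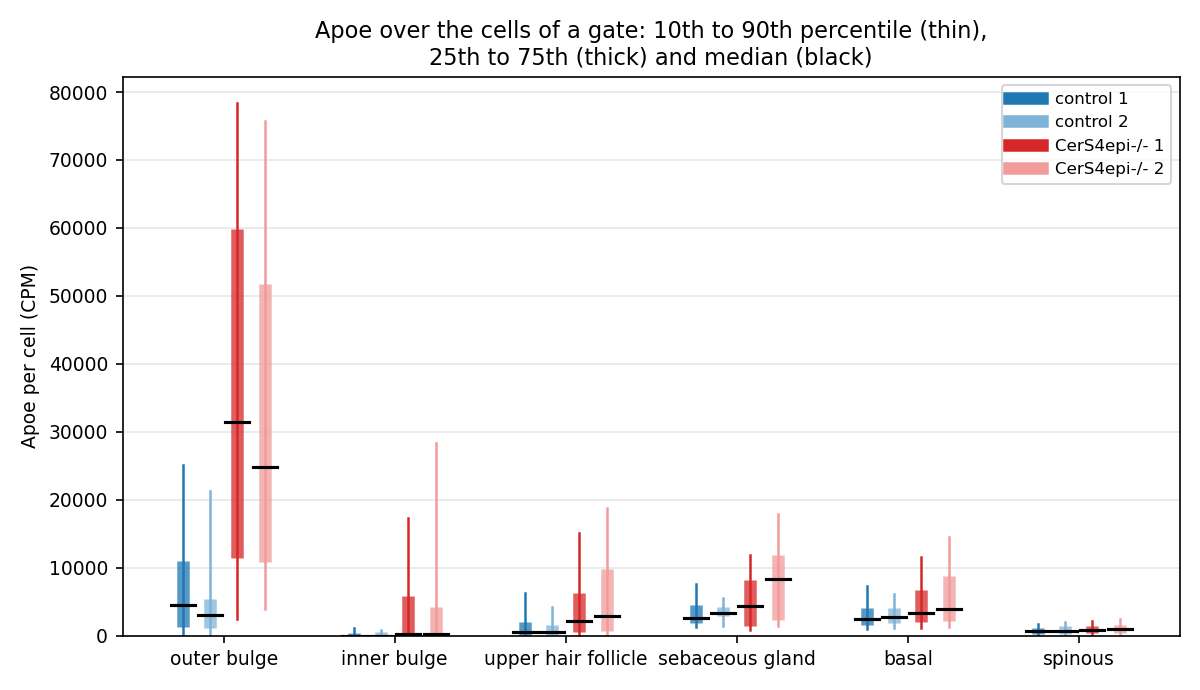
Apoe per cell in CPM (linear axis) for 6 gates and 4 mice, with thin lines from the 10th to the 90th percentile over cells, thick lines from the 25th to the 75th, and the median in black. The median outer bulge cell of the CerS4epi-/- mice (31377 and 24804 CPM) lies near or above the 90th percentile of control outer bulge cells (25103 and 21360 CPM).

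Apoc1 was far less abundant in counts and differed less. In the outer bulge gate it was at 212 and 167 CPM in control and at 497 and 331 CPM in CerS4epi-/- mice, a difference of 1.17 (SE 0.23, log2), from only 91, 53, 737 and 367 counts. In the upper hair follicle gate it was at 326 and 278 CPM in control and 410 and 336 CPM in CerS4epi-/- mice, where the values lay close to each other. In the inner bulge gate its 13 and 8 control counts and 45 and 36 CerS4epi-/- counts gave 55.6 and 49.97 against 262 and 163 CPM. Free RNA could make up to 56.1% and 80.8% of these control values, and the log2 ratio of the mean levels, 2.01, became 3.61 with free RNA subtracted. Apoc1 was highest in the sebaceous gate in every mouse, at 778 and 682 CPM in control and 755 and 794 CPM in CerS4epi-/- mice, and these values overlapped. The sebaceous gate held 15, 6, 37 and 47 cells, too few in control for a test. Apoe in it was at 2639 and 3183 CPM in control and 4442 and 5760 CPM in CerS4epi-/- mice.

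The number of Apoe counts for each Apoc1 count varied widely between gates. This ratio is of counts that are not corrected for transcript length, so it compares gates and mice, not the genes. It was 44.4 and 38.0 in the outer bulge gate of control mice and 74.7 and 93.1 in that of CerS4epi-/- mice. In basal cells it was 13.9 and 15.5 in control and 11.4 and 16.2 in CerS4epi-/- mice, and these values overlapped. In spinous cells it was 2.17 and 2.59 in control and 2.68 and 2.97 in CerS4epi-/- mice, and in granular cells 0.36 and 0.38 against 0.64 and 1.09. In the upper hair follicle gate it was 5.46 and 4.46 in control and 17.2 and 23.7 in CerS4epi-/- mice. The ratio in free RNA was 6.66 and 6.83 in control and 15.0 and 17.1 in CerS4epi-/- mice.

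**Figure D3:**
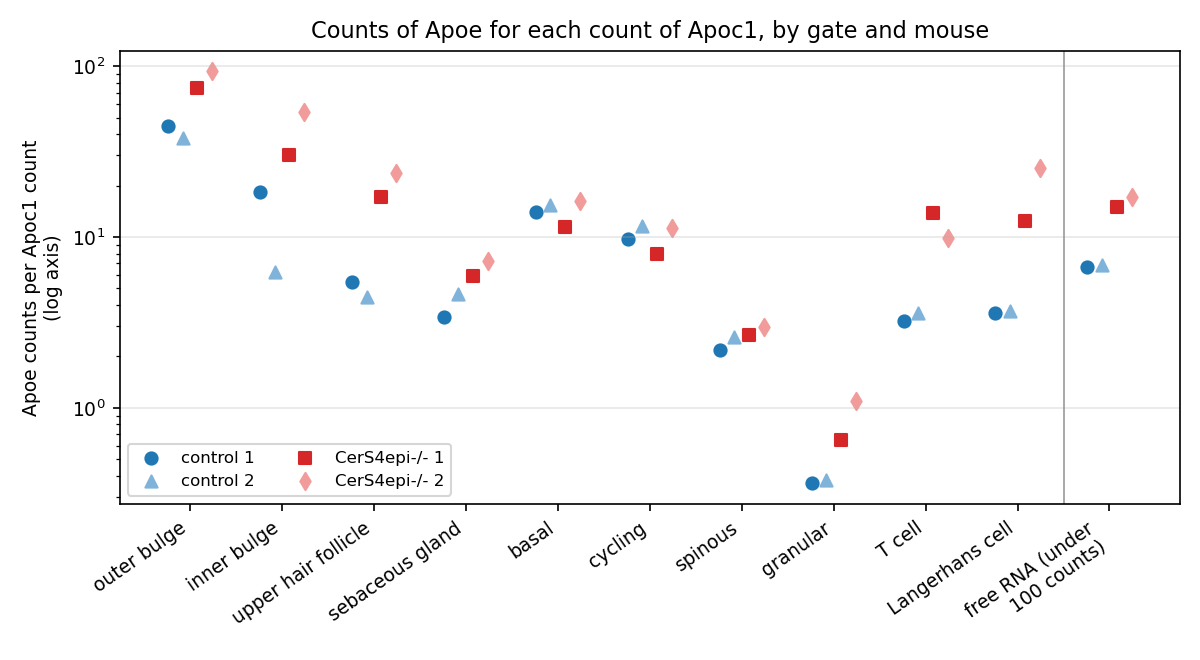
Counts of Apoe for each count of Apoc1 (log axis) by gate and, at the right, in free RNA, with 1 point per mouse. The ratio falls from 38.0 to 93.1 in the outer bulge gate to 0.36 to 1.09 in the granular gate, and differs little between genotypes in the basal, cycling and spinous gates.

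Free RNA, released by broken cells, adds counts to every gate. Barcodes with under 100 counts, which hold no cell, carried Apoe at 1492 and 1264 CPM in control and at 3919 and 4180 CPM in CerS4epi-/- mice, and Apoc1 at 224 and 185 CPM against 261 and 245 CPM. The lowest of Krt14, Krt10, Lor and Krt79 in a gate, as a share of its level in free RNA, limits how much of the gate's counts can be free RNA. By this limit free RNA gave at most 3.12% and 12.5% of Apoe in control outer bulge cells and at most 3.98% and 4.43% in CerS4epi-/- ones. It gave at most 2.23% of Apoe in basal cells and at most 10.5% in spinous cells of any mouse. In granular cells it could give 28.0% to 44.7%, in T cells 29.9% to 100% and in Langerhans cells 51.6% to 100%.

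Among interfollicular keratinocytes, Apoe was highest in basal cells, and it was lower in each layer above them. In basal cells Apoe was at 3212 and 3141 CPM in control and at 4557 and 5718 CPM in CerS4epi-/- mice. In spinous cells, the layer above, it was at 622 and 700 CPM in control and 920 and 940 CPM in CerS4epi-/- mice. In granular cells, the last living layer, it was at 66.2 and 63.0 CPM in control and 123 and 200 CPM in CerS4epi-/- mice. Against basal cells of the same mice, the log2 difference of Apoe was -2.19 (SE 0.07) in spinous cells, where 67.1% of all genes tested were called, and -4.54 (SE 0.15) in granular cells, where 84.7% were called (edgeR's quasi-likelihood test with the mouse as a block, Benjamini-Hochberg adjusted p = 1.39e-08 and 1.40e-09). In cycling cells it was at 2136 and 2523 CPM in control and 2617 and 3997 CPM in CerS4epi-/- mice, a difference of -0.55 from basal cells (SE 0.06, adjusted p = 1.03e-05, 38.3% of genes called).

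Over both genotypes together, Apoc1 differed less between these layers than Apoe. It was at 231 and 203 CPM in basal cells of control mice and at 400 and 353 CPM in those of CerS4epi-/- mice. In spinous cells it was at 286 and 270 CPM against 343 and 316 CPM, and in granular cells at 183 and 166 CPM against 191 and 183 CPM. The CPM was thus lower in granular than in basal cells in every mouse, and the gap was wider in CerS4epi-/- mice. The differences of Apoc1 that follow are on the scale of edgeR, which rescales the sums. In granular cells the sign on that scale is the opposite of that in CPM. Its differences from basal cells were 0.26 in spinous (SE 0.11, adjusted p = 0.07), 0.12 in granular (SE 0.12, adjusted p = 0.395) and -0.06 in cycling cells (SE 0.07, adjusted p = 0.514), none past the threshold of 0.05. The spinous difference passed it under 5 alternatives, among them without the first CerS4epi-/- mouse (0.37, adjusted p = 0.0203) and without the second (0.35, adjusted p = 0.0342), and the sign in cycling cells changed without the first CerS4epi-/- mouse (0.017) and in granular cells without the second control mouse (-0.026). The order of gates thus differed between the genes, with the sebaceous gate at the top for Apoc1 and the mixed outer bulge gate for Apoe.

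T cells and Langerhans cells held the least Apoc1 outside the inner bulge, in each control mouse. In T cells Apoc1 was at 97.3 and 146 CPM in control and 114 and 134 CPM in CerS4epi-/- mice, a log2 difference of -1.41 from basal cells (SE 0.18, adjusted p = 1.23e-06, 43.8% of genes called). In Langerhans cells it was at 130 and 152 CPM against 240 and 153 CPM, a difference of -0.79 (SE 0.16, adjusted p = 0.000231, 34.7% called). Apoe differed from basal cells by -2.46 in T cells (SE 0.19, adjusted p = 6.93e-10) and by -1.56 in Langerhans cells (SE 0.24, adjusted p = 1.10e-05). All these levels lay below those of free RNA in the same mouse.

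The genotype difference was tested in the gates other than those of the bulge, upper follicle and sebaceous gland. The basal gate came last, after the follicle gates, and still held cells with counts of follicle genes. They made up 64.8% and 61.4% of it in control and 85.3% and 84.5% in CerS4epi-/- mice. Its test is thus not independent of the contrast that chose Apoe. In basal cells both genes rose. Apoe was higher by 0.75 in CerS4epi-/- mice (SE 0.10, log2, adjusted p = 0.00454) and Apoc1 by 0.85 (SE 0.10, adjusted p = 0.00254), in a comparison that called 6.8% of genes. Apoc1 was counted in 39.2% and 36.4% of basal cells of control mice and in 62.9% and 54.0% of those of CerS4epi-/- mice, at median depths of 2648, 2502, 2869 and 2572 counts. Thinned to 1200 counts, these shares were 22.7% and 21.0% against 38.7% and 33.5%. In T cells Apoc1 was counted in 9.82% to 15.1% of cells. Apoe was counted in 98.2% to 98.8% of control and 98.8% and 99.0% of CerS4epi-/- basal cells.

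Counts of follicle genes moved with the genotype in the basal gate, and without the cells that held them the difference of Apoe no longer passed the test while that of Apoc1 did. Cells with no count of any of the 18 genes of the inner bulge, outer bulge and upper follicle lists made up 35.2% and 38.6% of basal cells in control and 14.7% and 15.5% in CerS4epi-/- mice. In them Apoe was at 2557 and 2758 CPM in control and 2845 and 3127 CPM in CerS4epi-/- mice, a difference of 0.24 (SE 0.08) that did not pass the test (adjusted p = 0.136). Apoc1 in the same cells was at 190 and 194 CPM in control and 336 and 286 CPM in CerS4epi-/- mice, a difference of 0.78 (SE 0.12) that did (adjusted p = 6.67e-05, 3.23% of genes called). In the remaining basal cells Apoe was at 3547 and 3358 CPM against 4809 and 6142 CPM, and Apoc1 at 252 and 208 CPM against 410 and 364 CPM. This selection of cells was added after the data had been seen, and the share of cells it keeps itself differed between the genotypes.

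In spinous cells Apoe rose by 0.48 (SE 0.08, log2, adjusted p = 0.00873, 7.4% of genes called). Among spinous cells with no count of a follicle gene the difference was 0.20 (SE 0.09, adjusted p = 0.355, 1.41% called), from 891 and 1028 CPM in control to 1070 and 1113 CPM in CerS4epi-/- mice. The remaining spinous cells held less Apoe, the reverse of basal cells, at 529 and 581 CPM in control and 889 and 901 CPM in CerS4epi-/- mice. They were also deeper, at medians of 5174.5 and 5196 counts in control and 5909 and 5207 in CerS4epi-/- mice. Without follicle counts the medians were 3507 and 3254.5 against 4396 and 3968.5. The part of depth in this selection was not tested. Apoc1 differed by 0.24 in all spinous cells (SE 0.08, adjusted p = 0.0984). In granular cells Apoe rose by 1.39 (SE 0.17, adjusted p = 0.00113, 11.3% called) on 588 and 709 Apoe counts for the control mice against 1216 and 1340 for the CerS4epi-/- mice. The median granular cell held no Apoe in any mouse. The top 10% of cells held 75.3% and 77.3% of its counts in control and 67.3% and 77.6% in CerS4epi-/- mice. Apoc1 differed by 0.18 in granular cells (SE 0.08, adjusted p = 0.176). In cycling cells neither gene passed the test, at 0.54 for Apoe (SE 0.17, adjusted p = 0.369) and 0.68 for Apoc1 (SE 0.11, adjusted p = 0.0996), in a comparison that called 8 of 9778 genes (0.0818%) and had 913 at an unadjusted p under 0.05. Without the first CerS4epi-/- mouse, which leaves 1 in that group, the differences were 0.82 for Apoe and 0.75 for Apoc1. Without the second they were 0.20 for Apoe and 0.62 for Apoc1.

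In the gates of immune cells, which are not keratinocytes, Apoe was higher in CerS4epi-/- mice too. In T cells it was at 314 and 525 CPM in control and 1582 and 1330 CPM in CerS4epi-/- mice, a rise of 1.79 (SE 0.24, log2, adjusted p = 0.00236, 1.05% of genes called). It did not pass with stricter gates (1.70, adjusted p = 0.0556) and was 0.90 with free RNA subtracted. In Langerhans cells it was at 465 and 562 CPM in control and 2963 and 3865 CPM in CerS4epi-/- mice, a rise of 2.702 (SE 0.30, adjusted p = 0.00492, 0.227% called). It did not pass at 10% mitochondrial counts (2.66, adjusted p = 0.0626) or with stricter gates (2.48, adjusted p = 0.198). Apoc1 differed by 0.04 in T cells (SE 0.29, adjusted p = 0.982) and by 0.47 in Langerhans cells (SE 0.34, adjusted p = 0.999). Without the first control mouse the Apoc1 difference in T cells was -0.26, and without the second CerS4epi-/- mouse -0.04. Free RNA, whose Apoe was higher in CerS4epi-/- mice as well, could account for all of the Apoe of T cells in 1 CerS4epi-/- mouse and of Langerhans cells in both control mice.

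Most of this Apoe lay in cells that also held keratin counts. T cells with under 5 counts of Krt1, Krt10, Krt5 and Krt14 together held 121 and 24.6 CPM of Apoe in control and 418 and 184 CPM in CerS4epi-/- mice, a difference of 1.89 (SE 0.49) that did not pass the test (adjusted p = 0.241, 0.0289% of genes called). Langerhans cells selected in this way held 116 and 165 CPM in control and 726 and 241 CPM in CerS4epi-/- mice, a difference of 1.87 (SE 0.53, adjusted p = 0.844). Of 2167 genes tested there, 0 were called (0%) and 117 had an unadjusted p under 0.05. The part of RNA from keratinocytes in these differences was not tested.

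**Figure D4:**
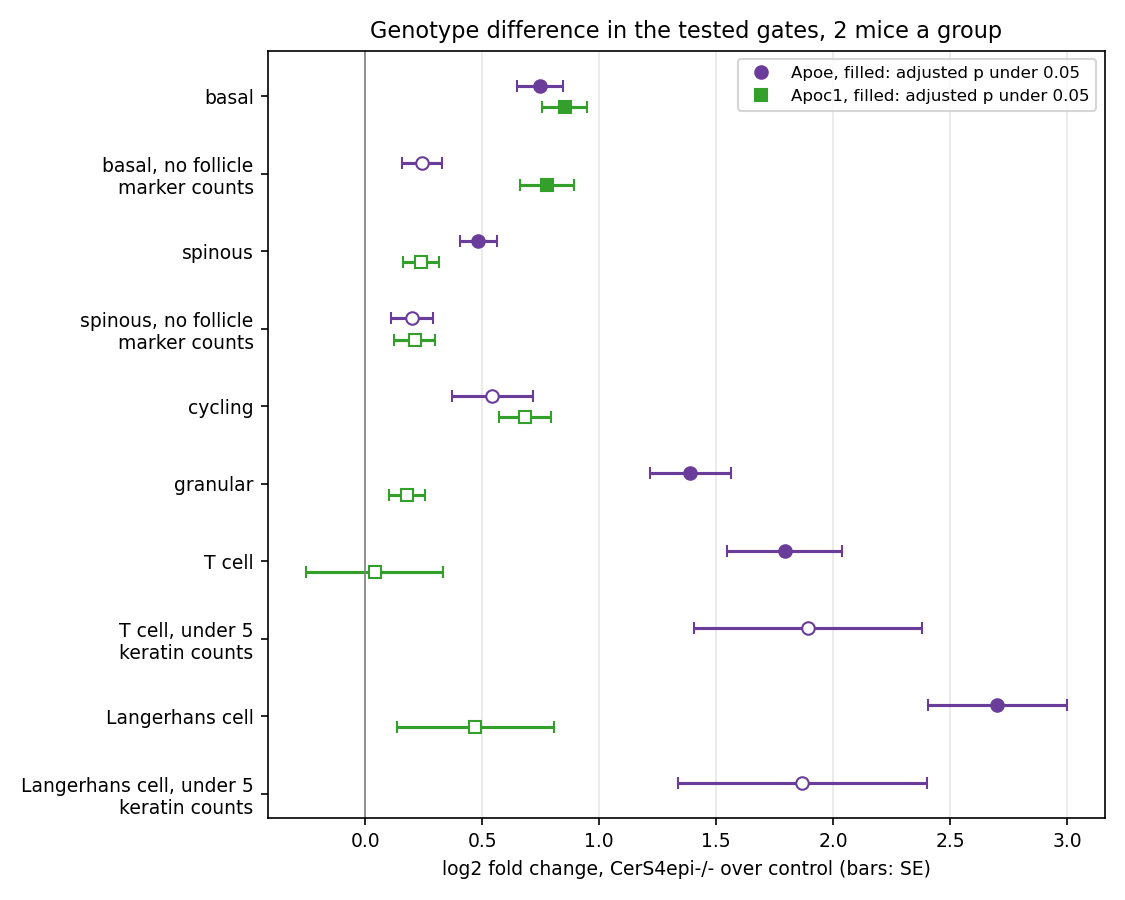
Genotype difference of Apoe (circles) and Apoc1 (squares) in the tested gates, as log2 fold change of CerS4epi-/- over control with its SE, filled where the adjusted p is under 0.05. Without cells that hold follicle marker counts, the Apoe difference in basal cells falls from 0.75 to 0.24 while that of Apoc1 is 0.85 and 0.78.

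The size of the genotype difference was compared between each gate and basal cells in 1 fit. For Apoc1 the log2 difference from that of basal cells was -0.62 in spinous cells (SE 0.07, adjusted p = 0.000876, 3.83% of genes called) and -0.65 in granular cells (SE 0.10, adjusted p = 0.00461, 4.72% called). For Apoe it was larger than in basal cells by 0.65 in granular cells (SE 0.12, adjusted p = 0.0119), by 1.14 in T cells (SE 0.20, adjusted p = 2.02e-05, 1.05% called) and by 1.94 in Langerhans cells (SE 0.24, adjusted p = 0.000325, 0.0252% called). In cycling cells, where 0.0597% of genes were called, neither gene passed this test. The Apoe result in granular cells was lost without the first control mouse (0.66, adjusted p = 0.105), that in T cells without the same mouse (0.78, adjusted p = 0.447), and that in Langerhans cells without the first (1.92, adjusted p = 0.980) or the second CerS4epi-/- mouse (1.96, adjusted p = 1).

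Of the receptors, lipid transporters, regulators and neighbours of Apoe, 38 genes in 6 lists, some differed between genotypes. In basal cells 32 were tested, 4 rose and 1 fell (15.6%, against the 6.8% of all genes). Vldlr, a receptor that binds particles bearing Apoe, rose by 0.83 from 7.53 and 5.62 CPM in control to 10.6 and 12.0 CPM in CerS4epi-/- mice. The sorting receptor Sorl1 fell by 0.99, from 45.9 and 32.4 to 22.1 and 15.3 CPM. Lipoprotein lipase (Lpl), the enzyme that Apoc1 inhibits, rose by 2.80 from 2.698 and 1.12 to 8.41 and 17.8 CPM. Pparg, a regulator of sebocyte differentiation that also belongs to the sebaceous marker list, rose from 0.11 and 0 CPM to 1.31 and 2.87 CPM, from a single count in the control mice.

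In spinous cells 4 of 28 tested rose and 1 fell (17.9%, against 7.4% of all genes). Among them Vldlr rose by 1.62, the liver X receptor target Mylip, a ubiquitin ligase, by 0.48, and Bcl3, a nuclear factor kappa B partner encoded near Apoe, by 1.26, while Scd1, a desaturase that is also a target of the liver X receptors, fell by 0.35. In granular cells 2 of 26 rose, among them Apol7a by 1.23, and Scd1 fell by 0.45, which is 11.5% of the list against 11.3% of all genes and so near the general share. In T cells Scd1 fell by 1.70 as the 1 gene called of 18 (5.56%, against 1.05% of all genes), from 112 and 136 to 42.8 and 32.9 CPM. These values rest on only 30 and 28 counts in control and 18 and 13 in CerS4epi-/- mice. Free RNA could make up at most 8.29% to 36.9% of all counts of this gate, and its part in the fall was not tested. None of the listed genes was called in cycling and Langerhans cells. Of the 9 chromosome neighbours 7 were tested in basal cells and none passed. Their median difference was -0.05, against 0.00 for all genes. Apoc2 and Apoc4, the neighbours nearest to Apoc1 on its far side, had too few counts to be tested there.

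The genes most like Apoe over the 38 sums of gate and mouse were Marcks, Galnt2, Car12, Tcf4 and Zfp326, with Pearson correlations of 0.89, 0.88, 0.87, 0.86 and 0.86 among 4375 genes. For Apoc1 they were Hadha, Psme4, Psmb2, Sec14l4 and Psmd11, at 0.85, 0.81, 0.78, 0.76 and 0.76. Apoc1 ranked 496th for likeness to Apoe, at 0.50, although the genes are neighbours. The sums of 1 mouse share a library and its free RNA, so these correlations are a description.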

How the data were processed

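Single-cell RNA was measured in dorsal epidermis of 4 mice, 2 per genotype. The deposited values are expected counts: the authors trimmed reads with fastp 0.23.2, aligned them to GRCm39 (Gencode vM29) with STAR 2.7.10a and divided ambiguous reads among genes by an estimation step, so 4.55% to 4.81% of the entries had decimals. All barcodes are included and nothing was scaled. Sums over cells were rounded to whole numbers here.

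Barcodes under 1200 counts or above 20% mitochondrial counts were left out. Gates were applied in a fixed order: 3 T cell genes, 4 Langerhans genes, 3 melanocyte, fibroblast or macrophage genes, 4 sebaceous genes, 2 counts of Krt75 (inner bulge), Lhx2 with another outer bulge gene (outer bulge), 3 counts of Krt79 (upper hair follicle), 3 cycling genes, 20 granular counts, 20 counts of Krt1 and Krt10 (spinous) and 5 of Krt5 and Krt14 (basal). The limits were set on marker counts. The members, the marker and gene lists and the rule for genes named (the listed genes called, and the 5 most alike in pattern by log2(CPM + 10) among genes reaching 100 CPM) were chosen with earlier results of these data known.

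Counts were summed per gate and mouse, and edgeR 4.0.16 (R 4.3.3) was run with TMM scaling and its filter on low counts, using the quasi-likelihood test, two-sided, with Benjamini-Hochberg adjustment over all genes tested, at 20 cells or more in every mouse. Between gates the mouse was a block. The tests were tested on simulated data. The random pseudoreplicates of the study, which divide the cells of a genotype, were not used here. Alternatives were DESeq2 1.42.0, its size factors, no filter, a replicate block, each mouse left out, stricter gates (limits raised by 1), 2000 counts, 10% mitochondrial counts, cells thinned to 1200 counts and free RNA subtracted. The selections of cells by follicle or keratin counts and the alternatives of the differences between gates in the genotype difference were added after seeing the data. Reference positions are from Gencode vM39. With 2 mice a group, an exact permutation test of 1 value cannot pass 0.05. The outer bulge sums held 318155 to 1481451 counts and the inner bulge sums 160105 to 233997, and intervals cover counting error only. The values of 1 listed gene are not reported here, though the counts over the lists include it.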

Additional observations from a re-analysis of the deposited data

Results flagged for a closer look

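The genotype difference (CerS4epi-/- against control, log2) of both genes differed between some gates and basal cells, by a test of that difference itself (edgeR's quasi-likelihood test with the mouse as a block, Benjamini-Hochberg adjusted). For Apoc1 it was -0.62 against basal cells in spinous cells (adjusted p = 0.000876) and -0.65 in granular cells (adjusted p = 0.00461), and both passed the threshold under every alternative run.

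For Apoe it was 0.65 above that of basal cells in granular cells (adjusted p = 0.0119), which did not pass with cells thinned to 1200 counts (0.32, adjusted p = 0.464) or without the first control mouse (0.66, adjusted p = 0.105). In T cells it was 1.14 (adjusted p = 2.02e-05), which did not pass with DESeq2 (1.12, adjusted p = 0.547), with stricter gates (0.84, adjusted p = 0.442) or without the first control mouse (0.78, adjusted p = 0.447). In Langerhans cells it was 1.94 (adjusted p = 0.000325), which did not pass with stricter gates (1.48, adjusted p = 0.865), with under 5 keratin counts (1.07, adjusted p = 0.979) or without the first (1.92, adjusted p = 0.980) or the second CerS4epi-/- mouse (1.96, adjusted p = 1). Free RNA could make up at most 28.0% to 44.7% of Apoe in granular cells, 29.9% to 100% in T cells and 51.6% to 100% in Langerhans cells, and its part in these differences was not tested.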

How the results depend on the processing

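Of 410 alternative values for 35 results, 351 kept their direction and side of the threshold (or, untested, moved by less than the spread between mice), and the others follow as log2 differences. Apoe in basal and spinous cells kept its call except among cells with no follicle marker counts (0.24 and 0.20), and Apoc1 in basal cells under every alternative run. In T cells Apoe was 1.70 with stricter gates and 1.89 under 5 keratin counts, neither called, and 0.90 with free RNA subtracted. In Langerhans cells it was 2.66 at 10% mitochondrial counts, 2.48 with stricter gates and 1.87 under 5 keratin counts, none called, and subtracting free RNA gave no value. In cycling cells Apoe was called with thinned cells (0.67) and no filter (0.53), and Apoc1 with DESeq2 (0.68), thinned cells (0.76) and no filter (0.67). Apoc1 was called without a filter in spinous cells (0.23), was 0.10 in granular cells with free RNA subtracted, and reversed in T cells at 2000 counts (-0.28), 10% mitochondrial counts (-0.24) and with free RNA subtracted (-0.72).

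Against basal cells, Apoc1 reversed in cycling cells at 2000 counts (0.046) and in granular cells when thinned (-0.060), and was called in granular cells at 10% mitochondrial counts (0.30) and in spinous cells at 2000 counts (0.38), 10% mitochondrial counts (0.37) and no filter (0.29). In the outer bulge gate Apoe was 2.53 under 20 Krt1 and Krt10 counts, and Apoc1 1.64 at 10% mitochondrial counts and 1.57 with free RNA subtracted. In the inner bulge gate Apoe was 4.93 at 10% mitochondrial counts, and Apoc1 3.61 with free RNA subtracted and 2.83 under 20 Krt1 and Krt10 counts. In the upper hair follicle gate Apoe was 1.98 when thinned and 2.69 with stricter gates. In the sebaceous gland gate Apoe was 1.21 at 10% mitochondrial counts and 1.201 when thinned, and Apoc1 -0.12, 1.01 and, with stricter gates, -0.011. The cause of these changes was not tested.

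Leaving out each mouse in turn gave Apoc1 ranges of -0.12 to 0.017 (cycling), -0.026 to 0.24 (granular) and 0.15 to 0.37 (spinous) against basal cells, of -0.26 to 0.39 (T cell) and 0.62 to 0.75 (cycling) between genotypes and of -0.072 to 0.44 in the sebaceous gland gate, and Apoe ranges of 0.20 to 0.82 (cycling), 3.04 to 4.74 (inner bulge) and 2.11 to 2.66 (upper hair follicle). With the replicate number as a block, Apoe was 0.74 and Apoc1 0.85 in basal cells, and no call changed. Deviations of same-numbered mice correlated by 0.14 in basal, 0.12 in spinous and -0.06 in upper follicle sums, so the numbers were not taken as pairs. With 2 mice a group, the sebaceous values rest on 6 to 47 cells a mouse and the inner bulge values on 26 to 47.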

Other observations

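Genes of lipid efflux and loading, which act with Apoe, were compared between layers of the epidermis (log2 difference from basal cells, edgeR's quasi-likelihood test with the mouse as a block, Benjamini-Hochberg adjusted over all genes). Of 7 such genes, 5 were lower in spinous cells and none higher. The comparison called 67.1% of all 12573 genes tested, 4304 lower and 4132 higher. Their median difference was -1.48, against -0.02 for all genes. The cholesterol exporter Abca1 was at -1.48 (adjusted p = 3.82e-07) and Abcg1 at -1.01 (adjusted p = 2.87e-06). In granular cells, where 84.7% of all 12580 genes tested were called (5639 lower and 5019 higher), 4 of the 7 were lower and 1 higher. Abca1 was at -3.80 there (adjusted p = 2.32e-08), while Abcg1 was at 0.59 (adjusted p = 0.000381). These differences are on the scale of edgeR, which rescales the sums. On that scale Apoc1 was at 0.12 in granular cells, although its CPM was lower than in basal cells in every mouse. The CPM of Abcg1 was not compared, so its sign may rest on the scaling. Scd1, a desaturase, was higher in spinous cells by 2.09 (adjusted p = 3.56e-09).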
